A study of Mus musculus with 2 samples.

Results

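The genes described here are 5 keratins (Krt7, Krt8, Krt14, Krt18 and Krt19) and 5 genes of the mesothelium (Msln, Upk3b, Upk1b, Lrrn4 and Wt1). They were taken by symbol and are 10 of the 32285 genes in the count tables. Their UMIs, counts of single RNA molecules, were summed over cancer-like, mesothelial-like, fibroblast-like and immune cells of mouse ovarian tumors, to see which keratins went with the cancer cells and which with the mesothelium.

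Keratins are the intermediate filament proteins of epithelial cells. They assemble as pairs of a type I and a type II chain, so that Krt18 (type I) is the usual partner of Krt8 (type II) in simple epithelia. Krt7 (type II) and Krt19 (type I) are found in simple and ductal epithelia, and Krt14 (type I) in the basal layer of stratified epithelia. The mesothelium, the single cell layer that lines the peritoneal cavity and covers the ovary, also builds keratin filaments. Its surface carries mesothelin (Msln), the uroplakins Upk3b and Upk1b, which are otherwise known from the bladder lining, and the leucine-rich repeat protein Lrrn4. Wt1 encodes a zinc finger transcription factor of the mesothelium, gonad and kidney.

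Single-cell RNA sequencing was done on tumors from the abraded peritoneal wall of female C57BL/6 mice, aged 6 to 8 weeks per the labels, that carried syngeneic ovarian cancer cells (genotype p53-/-, myc, Hras). All mice had the abrasion and the cancer cells, and daily i.p. injections of control IgG or of an Activin A neutralizing antibody began on the following day. By the labels, 7 mice got control IgG and 8 the antibody for 10 days, and tumors were pooled into 1 library per group. Mouse numbers and days are stated otherwise for the single-cell experiment in its published description. With 1 library per group no test was possible, no SD between replicates exists, and treatment cannot be told apart from other differences between the libraries. Depth was 98174850 UMIs with control IgG and 74117462 UMIs with the antibody, and 8770 and 6386 cells passed the study's limits, with 19 barcodes present in both. Throughout, of a pair of values the former is control IgG and the latter the antibody, except where the text names the libraries or classes.

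Levels are given as CPM, the UMIs of a gene per 1000000 UMIs of all cells of that class in that library. UMIs were read at the 3′ end and count molecules, so they were not divided by gene length. Intervals are 95% (exact Poisson for CPM, exact Clopper-Pearson for shares, conditional binomial for log2 ratios). They take in nothing but counting error, not the spread among mice or libraries, and they are too narrow where the UMIs lie in a few cells.

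Krt18, Krt8 and Krt7, which the cancer-like and mesothelial-like cells used differently, lie on chromosome 15 (GRCm38, GENCODE M21). Krt8 (ENSMUSG00000049382) runs from 101996698 to 102004482 on the minus strand, and Krt18 (ENSMUSG00000023043) from 102028180 to 102032027 on the plus strand, as the type I gene placed next to its type II partner. Krt7 (ENSMUSG00000023039) runs from 101411043 to 101430313 on the plus strand. Krt19 (ENSMUSG00000020911) and Krt14 (ENSMUSG00000045545) lie on chromosome 11, at 100140810 to 100148665 and 100203162 to 100207548. Msln lies on chromosome 17, Upk3b on 5, Upk1b on 16, and Lrrn4 and Wt1 on 2. No member overlaps another gene on its own strand, while Gm36026 overlaps Krt8 and Gm671 overlaps Krt7 on the other strand. The bases before the RefSeq start of these 3 genes (GRCm38.p6), up to the first base in an annotated UTR, are printed here because their RNA levels part ways in the cells described further on. Krt8 is at chr15:102004483-102004592 (minus strand, 110 bases), Krt18 at chr15:102027966-102028179 (plus strand, 214 bases) and Krt7 at chr15:101412153-101412401 (plus strand, 249 bases). The Krt7 stretch lies inside the GENCODE gene, past its first base, while the Krt8 and Krt18 stretches lie outside theirs, so the 3 are not alike in kind.
Krt8: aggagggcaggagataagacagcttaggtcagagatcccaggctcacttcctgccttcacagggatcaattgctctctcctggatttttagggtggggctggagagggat
Krt18: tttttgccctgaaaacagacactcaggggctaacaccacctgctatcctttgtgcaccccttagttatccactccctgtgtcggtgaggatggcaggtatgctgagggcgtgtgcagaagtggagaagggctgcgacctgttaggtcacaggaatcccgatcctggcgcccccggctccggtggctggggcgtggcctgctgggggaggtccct
Krt7: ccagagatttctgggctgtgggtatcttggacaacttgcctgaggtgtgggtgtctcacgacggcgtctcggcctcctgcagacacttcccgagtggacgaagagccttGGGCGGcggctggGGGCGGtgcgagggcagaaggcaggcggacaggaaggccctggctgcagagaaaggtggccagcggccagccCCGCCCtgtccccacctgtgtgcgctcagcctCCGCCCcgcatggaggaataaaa
Capitals mark the letters GGGCGG on either strand (a GC box). The 250 bases before each start were searched on both strands for these letters. The AP-1 motif, TGANTCA, was searched likewise. A search for TATAAA, the TATA box, was the last of the 3. The Krt7 window held 4 matches of GGGCGG and the Krt8 and Krt18 windows held none of the 3 motifs. Over 32851 promoters of the same length, 32.7% held the GC box, 6.75% the AP-1 motif and 12.4% the TATA box. A match is a description of letters and says nothing of binding, and the table had an entry for 6 of the 10 genes.

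Cells were sorted into classes by the UMIs of marker lists that hold none of the 10 genes. Cancer-like cells (markers Dlk1, Cdkn2a, Hmga2, Mid1 and Lgals7) numbered 334 with control IgG and 362 with the antibody, at a median of 57093 and 55358.5 UMIs. Mesothelial-like cells (Nkain4, Gpm6a, Rspo1, Aldh1a2, Cldn15 and Bnc1) numbered 56 and 33, at 26153.5 and 32009 UMIs, and fibroblast-like cells 160 and 198, at 12269 and 8719 UMIs. Immune cells made up 92.0% and 88.9% of the kept cells (8071 and 5675). All 6 mesothelial markers were found in at least 20% of the mesothelial-like cells of both libraries. Their summed level was 690 and 891 CPM there and 0.848 and 1.47 CPM among cancer-like cells. These levels follow largely from the sorting. The same 6 genes set the mesothelial gate, and cells past both this gate and the cancer-like gate were left out. The mesothelial-like class is a range along a score and not a sharp type. It also held 20265 and 13578 CPM of the fibroblast list (Col1a1, Dcn and others), against 40774 and 43330 CPM in fibroblast-like cells, and 71 and 42 cells of all kept cells lay within 1.5 times of the threshold. An endothelial list (Pecam1, Cdh5 and others), for which no gate was set, stood at 71.7 and 411 CPM in mesothelial-like cells. It was 7.58 and 9.01 CPM in cancer-like and 19.1 and 22.8 CPM in fibroblast-like cells. The part of this uneven admixture in the ratios between libraries was not tested. Cells past more than 1 gate (107 and 94), which can be doublets, were left out.

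Cancer-like cells carried Krt18 with very little of any other member keratin. Krt18 reached 617 CPM (interval 606 to 628, 11641 UMIs) with control IgG and 693 CPM (681 to 704, 13685 UMIs) with the antibody. Its partner Krt8 reached 19.2 CPM (17.3 to 21.3) and 17.4 CPM (15.6 to 19.4), and Krt19 22.8 CPM (20.7 to 25.1) and 24.2 CPM (22.1 to 26.5). These 2 levels were similar in size in both libraries and far below that of Krt18. Krt7 had 2 and 4 UMIs in all cancer-like cells (0.106 and 0.202 CPM), and Krt14 had 1 UMI and 0 UMIs, where 3 UMIs would be 0.152 CPM in the antibody library.

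The mesothelial surface genes were all but missing from cancer-like cells, while Wt1 was present. Msln was 0.424 CPM (8 UMIs) and 0.101 CPM (2 UMIs), Upk3b had 2 UMIs and 1 UMI, Lrrn4 had 1 UMI in each library, and Upk1b had 25 and 6 UMIs (1.32 and 0.304 CPM). Wt1 was 69.1 CPM (65.4 to 73.0) and 72.7 CPM (69.0 to 76.6), and 77.2% (72.4% to 81.6%) and 76.5% (71.8% to 80.8%) of cancer-like cells had a Wt1 UMI. In the cancer-like cells Wt1 was thus the 1 gene of the mesothelial 5 above 2 CPM.

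Mesothelial-like cells had all 10 genes at 69 CPM or more, in a different mixture. Krt8 was highest of the keratins with control IgG, at 489 CPM (455 to 524), and was 354 CPM (319 to 392) with the antibody. Krt19 was 346 CPM (318 to 377) and 469 CPM (428 to 512), and Krt7 202 CPM (180 to 225) and 384 CPM (347 to 423). Krt18, the leading keratin of the cancer-like cells, was 215 CPM (193 to 239) and 189 CPM (164 to 217) here, and Krt14 109 CPM (93.4 to 127) and 69.7 CPM (54.6 to 87.6). The order of Krt19 and Krt8 differed between the libraries, and the intervals of Krt7 and Krt18 overlapped with control IgG but not with the antibody.

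Among the mesothelial genes in mesothelial-like cells, Wt1 was 225 CPM (202 to 249) and 264 CPM (234 to 297) and Msln 209 CPM (187 to 233) and 228 CPM (200 to 259), intervals that overlapped within each library. Lrrn4 was 148 CPM (130 to 168) and 204 CPM (178 to 233), Upk1b 155 CPM (136 to 175) and 156 CPM (133 to 181), and Upk3b 108 CPM (92.8 to 126) and 178 CPM (154 to 206). A Wt1 UMI was present in 56 of 56 and 30 of 33 cells, a Krt8 UMI in 46 and 27 cells, and a Krt14 UMI in 20 and 10 cells.

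**Figure D1:**
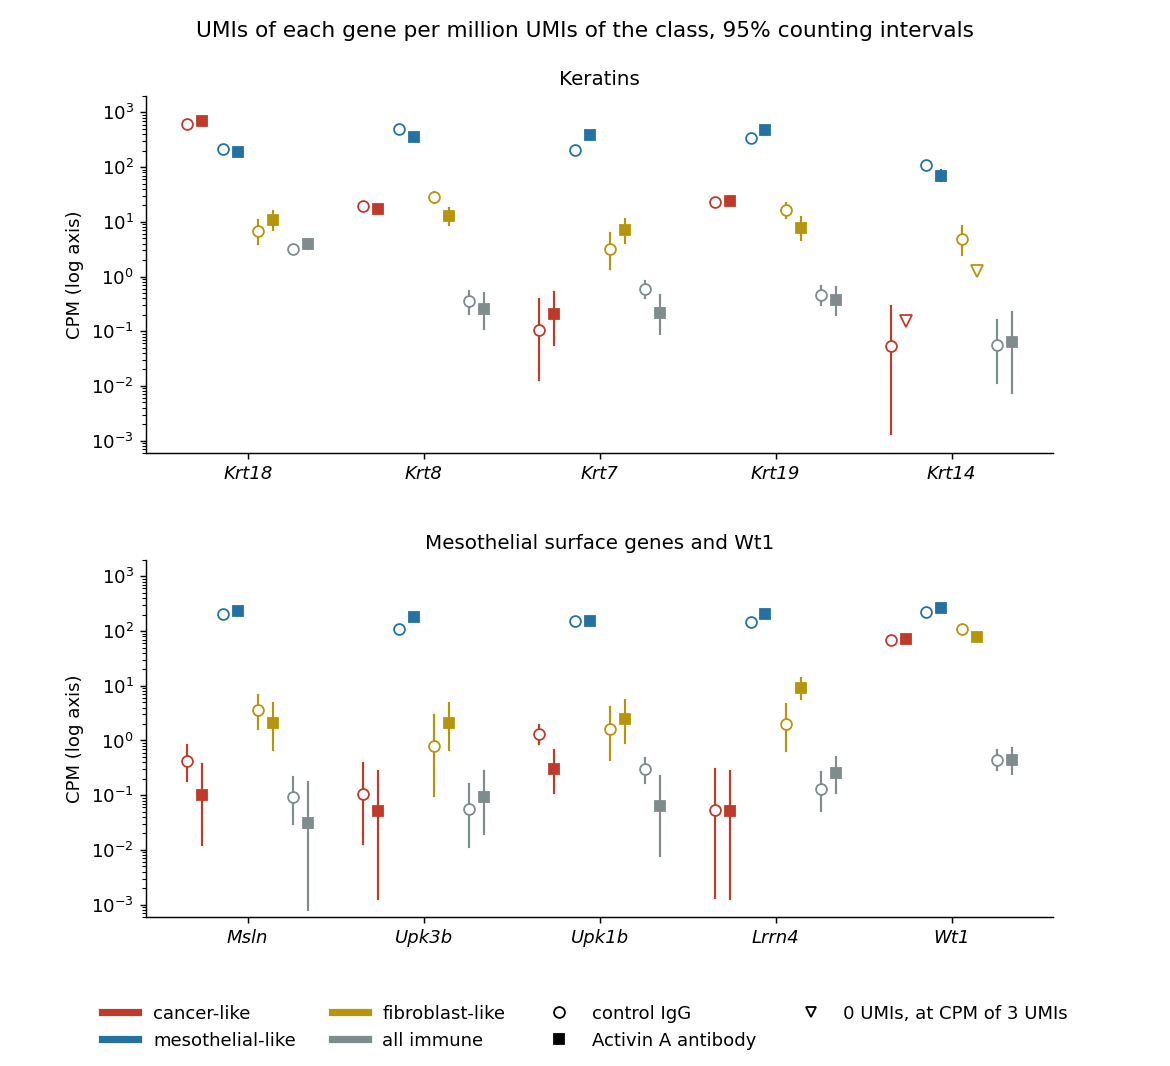
Level of each gene in CPM on a log axis, by class (color) and library (open circle, control IgG; filled square, Activin A antibody), with 95% counting intervals; open triangles mark genes with 0 UMIs, drawn at the CPM of 3 UMIs. Krt18 was highest in cancer-like cells (617 and 693 CPM), the other 9 genes in mesothelial-like cells, and Wt1 was the only mesothelial gene above 2 CPM in cancer-like cells.

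Set against mesothelial-like cells of the same library, 1 of the 10 genes was at least 2-fold higher in cancer-like cells and 9 were at least 2-fold lower, in both libraries. Over all genes with at least 20 UMIs, 20.3% were at least 2-fold higher and 17.5% lower in cancer-like cells with control IgG, and 18.3% higher and 19.3% lower with the antibody (37.9% and 37.6% either way). The genes were chosen as epithelial and mesothelial markers with earlier results known, so their counts are not independent of the classes. Krt18 was 2.87-fold higher (log2 1.52, interval 1.36 to 1.68) and 3.67-fold higher (1.87, 1.67 to 2.08). This is against the whole mesothelial-like class, which is mixed. In its 24 and 17 cells with at least 4 of the 5 keratins, picked in part by Krt18, Krt18 was 447 and 288.5 CPM. That is nearer to the cancer-like level and still below it. Krt8 was 25.5-fold and 20.3-fold lower in cancer-like cells, and Krt19 15.2-fold and 19.4-fold lower. Krt7 had a log2 ratio of -10.89 in both libraries, with intervals of -13.95 to -9.03 and -12.77 to -9.52. Wt1 was 3.25-fold and 3.64-fold lower, the smallest of the 9 differences in both libraries. The median log2 ratio over the 10 genes was -7.91 and -9.95, against 0.14 and 0.051 over all genes.

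The make-up of the keratin UMIs separated the classes in the same way. Krt18 held 93.6% (93.2% to 94.0%) and 94.3% (93.9% to 94.7%) of the UMIs of the 5 keratins in cancer-like cells, and 15.8% (14.3% to 17.4%) and 12.9% (11.3% to 14.7%) in mesothelial-like cells. Krt7 and Krt14 together with Krt8 and Krt19 made up the rest of the mesothelial-like keratins, with Krt8 at 35.9% and 24.2%, Krt19 at 25.5% and 31.99%, Krt7 at 14.8% and 26.2% and Krt14 at 8.02% and 4.76%. For 1 Krt8 UMI there were 32.2 and 39.8 Krt18 UMIs in cancer-like cells and 0.440 and 0.534 in mesothelial-like cells.

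**Figure D2:**
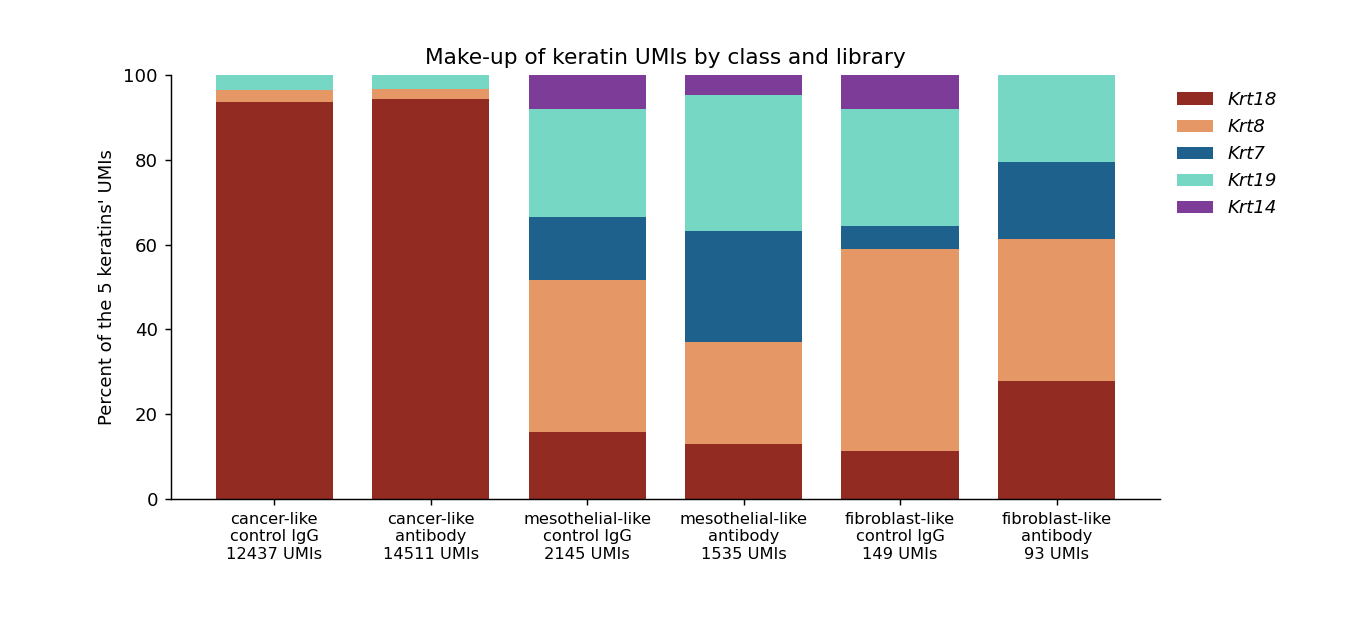
Share of each keratin, in percent, among the UMIs of the 5 keratins, by class and library, with the number of UMIs under each bar. Krt18 took 93.6% and 94.3% of the cancer-like bars but 15.8% and 12.9% of the mesothelial-like ones, while the fibroblast-like bars rest on 149 and 93 UMIs.

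The balance of the chain types was taken over all 53 keratin genes of the tables. In mesothelial-like cells type I and type II keratins had nearly equal numbers of UMIs, 1094 and 1092 with control IgG and 781 and 779 with the antibody (type I share 50.05%, interval 47.9% to 52.2%, and 50.06%, 47.5% to 52.6%). In cancer-like cells type I keratins had 12992 and 15869 UMIs and type II keratins 691 and 695, or 18.8 and 22.8 type I UMIs for 1 of type II. The RNA of the 2 chain types was thus balanced in mesothelial-like cells and not in cancer-like cells. These counts are of RNA, and filament proteins were not measured.

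Within the cancer-like class, Krt18 was spread over most cells and Krt8 over few. Cells with a Krt18 UMI made up 85.3% (81.1% to 89.0%) and 90.1% (86.5% to 92.9%) of the class, and the median cell had 2.69 and 3.78 Krt18 UMIs per 10000, with quartiles of 0.485 and 8.58 with control IgG and 0.897 and 8.58 with the antibody. The 49 and 36 cells without a Krt18 UMI had a median depth of 43900 and 41135 UMIs and Wt1 at 74.2 and 56.5 CPM, against 68.4 and 73.9 CPM in cells with Krt18. They were shallower than the cells with Krt18, and the direction of the Wt1 difference was not the same in both libraries. After each cell was thinned to 2000 UMIs, a Krt18 UMI was present in 45.6% and 46.5% of cancer-like cells. Among T and NK cells, a class chosen as one that should lack the 10 genes, the shares were 0.591% and 0.716%. Some other keratins were found in T and NK cells, such as Krt10 (131 and 73 UMIs) and Krt83 (95 and 106 UMIs). Thinning left out 1 and 3 cancer-like and 129 and 182 T and NK cells as too shallow. Unthinned, T and NK cells, at a median of 4806 and 4163.5 UMIs, had a Krt18 UMI in 2.11% and 2.02% of cells.

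Krt8 was found in 26 of 334 and 35 of 362 cancer-like cells. The 14 and 17 cells with at least 3 Krt8 UMIs, a limit chosen after the values were seen, held 96.1% and 93.9% of the class's Krt8 UMIs, at 445 and 305 CPM, while all other cancer-like cells had 0.774 and 1.12 CPM. In the same cells Krt18 was 2254 and 1660 CPM, against 546 and 638 CPM in the others, and Wt1 was 42.2 and 47.2 CPM against 70.3 and 74.2 CPM. They held 0 Krt7 UMIs in both libraries and 1 and 2 UMIs of the 4 mesothelial surface genes, and their median depth was 61006 and 55886 UMIs against 56979 and 55311. High Krt8 in these cells follows from how they were picked. Krt18, which was not used to pick them, was also higher there, with few UMIs of the surface genes. Krt19 was likewise held by few cells, with 24 and 33 cells of at least 3 UMIs, of which 5 and 6 were also among the Krt8 cells. Whether such cells are doublets was not tested.

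**Figure D3:**
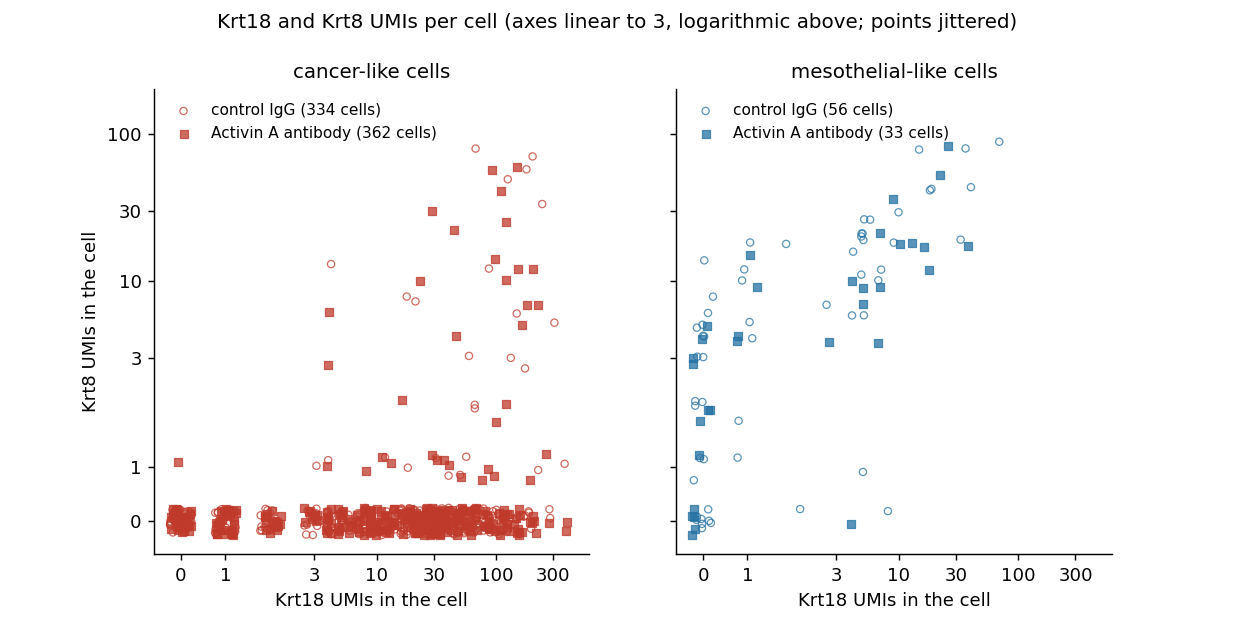
Krt18 UMIs (x axis) and Krt8 UMIs (y axis) in each cancer-like (left) and mesothelial-like cell (right), both axes linear up to 3 and logarithmic above, with points jittered; open circles are control IgG and filled squares the antibody. Most cancer-like cells lie along the bottom with Krt18 and no Krt8, while 46 of 56 and 27 of 33 mesothelial-like cells have Krt8.

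Mesothelial-like cells were a mixture in which the keratins and surface genes came together in the same cells. At least 4 of the 5 keratins were present in 24 of 56 and 17 of 33 cells, and all 10 genes in 15 and 9 cells. In the cells with at least 4 keratins, Msln was 416 and 387 CPM, Upk1b 323 and 230 CPM, Lrrn4 303 and 289 CPM, and Upk3b 224 and 290 CPM. In the 24 and 10 cells with at most 2 keratins, Msln was 17.2 and 4.23 CPM and Upk3b 1.56 and 21.2 CPM, while Wt1 was 197 and 241 CPM, against 259 and 287 CPM in the cells with at least 4. Wt1 thus differed less along this split than the surface genes. The medians of depth were 24897.5 and 24658.5 UMIs in cells with at most 2 keratins and 25141 and 34151 UMIs in those with at least 4.

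The contractile genes Acta2 and Tagln, which mark myofibroblasts and smooth muscle, were unevenly spread over these cells and between the libraries. With at least 10 Acta2 and Tagln UMIs per 10000, a limit chosen after the values were seen, there were 18 of the 56 control IgG cells and 3 of the 33 antibody cells. In the 18 cells Krt8 was 251 CPM, Wt1 169 CPM, Msln 103 CPM, Krt19 74.7 CPM and Krt18 60.5 CPM, and Krt7 was 17.8 CPM, Upk3b 1.78 CPM, Upk1b 7.12 CPM and Lrrn4 14.2 CPM. In the other 38 cells Krt8 was 620 CPM, Wt1 255 CPM, Msln 267 CPM, Krt19 497 CPM, Krt18 301 CPM, Krt7 304 CPM, Upk3b 168 CPM, Upk1b 237 CPM and Lrrn4 222 CPM. Each gene named here was lower in the 18 cells than in the other 38, Wt1 by the least. Of the 18 cells, 16 had at most 2 of the 5 mesothelial genes, against 8 of the other 38. The 3 such cells of the antibody library held 8 Krt8 and 15 Wt1 UMIs, 1 UMI each of Upk3b, Upk1b and Lrrn4, and 0 UMIs of the other 5 genes.

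**Figure D4:**
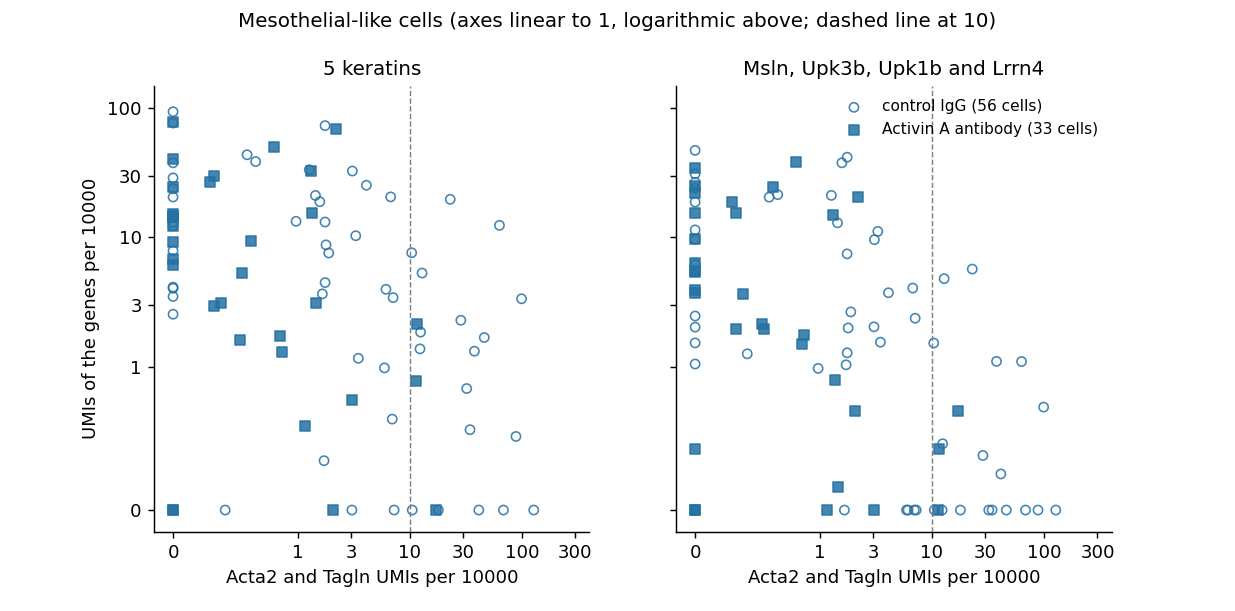
Each mesothelial-like cell by its Acta2 and Tagln UMIs per 10000 (x axis) and its UMIs per 10000 of the 5 keratins (left) or of Msln, Upk3b, Upk1b and Lrrn4 (right), axes linear up to 1 and logarithmic above; open circles are control IgG, filled squares the antibody, and the dashed line is at 10. Right of the line lie 18 control IgG cells and 3 antibody cells, most of them low in the surface genes.

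In fibroblast-like cells the keratins and surface genes were low, and Wt1 was not. Krt8 was 28.2 CPM (22.1 to 35.6) and 12.8 CPM (8.72 to 18.2), Krt19 16.3 and 7.86 CPM, Krt18 6.76 and 10.8 CPM, Krt7 3.18 and 7.03 CPM, and Krt14 4.77 CPM and 0 UMIs. The surface genes stood between 0.796 CPM (Upk3b, control IgG) and 9.10 CPM (Lrrn4, antibody), and Wt1 was 107 CPM (94.97 to 121) and 78.6 CPM (67.8 to 90.6). All 10 genes were at least 2-fold lower than in mesothelial-like cells in both libraries, where 5.69% and 7.54% of all genes were lower, 11.5% and 12.9% higher and 17.2% and 20.4% either way; the genes were chosen as markers of such a difference. Wt1 was 2.09-fold and 3.36-fold lower, the smallest difference in both.

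Most Krt8 UMIs of this class, but not its Krt18 UMIs with the antibody, lay in cells that also had mesothelial markers. The 95 and 138 fibroblast-like cells without a UMI of the mesothelial list had Krt8 at 0.935 CPM and 0 UMIs, Krt7 at 0.935 and 0.835 CPM and Wt1 at 39.3 and 25.05 CPM. The 65 and 60 cells with such a UMI but below the mesothelial threshold had Krt8 at 48.5 and 25.4 CPM and Wt1 at 158 and 131 CPM, and were deeper, at a median of 18744 and 16940.5 UMIs against 9325 and 7338. Krt18 had 1 of its 17 UMIs in cells without mesothelial markers with control IgG but 20 of its 26 (16.7 CPM, against 4.92 CPM in the cells with them) with the antibody. The part of depth in this split was not tested. A single cell held 14 of the 26 Krt18 UMIs, a single cell 14 of the 17 Krt7 UMIs and a single cell 12 of the 22 Lrrn4 UMIs of the antibody library.

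Immune cells gave the floor for these genes. Krt18 was 3.19 CPM (2.73 to 3.70) and 3.86 CPM (3.20 to 4.60) in all immune cells, and the other 9 genes were at 0.590 CPM or less. Barcodes under 100 UMIs, which hold free RNA, had Krt18 at 90.01 and 213 CPM. The Krt7, Krt14, Upk3b and Lrrn4 levels of cancer-like cells, and their Msln and Upk1b levels with the antibody, had intervals that overlapped or lay below those of immune cells of the same library and were read as background. Msln in cancer-like cells with control IgG was 0.424 CPM (0.183 to 0.835, 8 UMIs), against 0.0922 CPM (0.0299 to 0.215, 5 UMIs) in immune cells. These intervals overlapped only between 0.183 and 0.215 CPM, and whether Msln stood above the immune level was not tested. Upk1b in cancer-like cells with control IgG (0.857 to 1.96 CPM) stood above its immune level (0.169 to 0.479 CPM).

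Between the libraries, the antibody and control IgG levels of the members were close in cancer-like cells. Of the 5 genes with at least 20 UMIs there, 1 (Upk1b, from 25 and 6 UMIs, log2 ratio -2.12, interval -3.70 to -0.80) was at least 2-fold lower with the antibody and 0 were 2-fold higher, beside 2.07% of all genes higher, 2.95% lower and 5.02% either way. Krt18 had a log2 ratio of 0.17 (0.13 to 0.20), Krt19 0.083 (-0.11 to 0.27), Wt1 0.074 (-0.035 to 0.18) and Krt8 -0.14 (-0.36 to 0.077). The intervals of Krt19, Wt1 and Krt8 include 0. The summed keratins differed by 0.16 (0.12 to 0.19), which fell to 0.0085 with each cell thinned to 2000 UMIs and rose to 0.28 when the 39 and 63 cancer-like cells above the limits on genes or UMIs were kept. Those cells had Krt18 at 733 and 973 CPM.

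In mesothelial-like cells 0 of the 10 genes differed by at least 2-fold, beside 8.17% of all genes (4.85% higher and 3.32% lower). Krt7 differed most, with 384 CPM with the antibody against 202 CPM with control IgG (log2 ratio 0.93, 0.71 to 1.14), followed by Upk3b (0.72, 0.41 to 1.03), and Krt14 (-0.65, -1.06 to -0.24) and Krt8 (-0.46, -0.65 to -0.28) were lower. The median over the 10 genes was 0.18, against 0.055 over all genes. These values moved with the cells taken. Krt7 was 0.39 with all thresholds doubled and 0.070 in clusters made without the 10 genes, and the summed keratins went from 0.11 (0.011 to 0.20) to -0.35 and -0.52. Among cells with fewer than 10 Acta2 and Tagln UMIs per 10000, which leaves 38 and 30 cells, the log2 ratio was -0.24 (-0.34 to -0.15) for the keratins and -0.058 (-0.18 to 0.064) for the mesothelial genes, against 0.29 (0.17 to 0.40) for the latter in the whole class. In that subset Krt7 was 0.46, Krt8 -0.72 and Krt14 -1.06.

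In fibroblast-like cells 6 of the genes could be compared, of which 2 were at least 2-fold higher with the antibody (Krt7 and Lrrn4) and 2 at least 2-fold lower (Krt8 and Krt19), beside 2.94% of all genes higher, 3.1% lower and 6.03% either way. The values rest on few UMIs. Lrrn4 had 5 and 22 UMIs (log2 ratio 2.19, 0.76 to 3.95), and 1.38 without the cell with most of them in each library, and it turned to -0.91 with doubled thresholds. Krt7 had 8 and 17 UMIs (1.14, -0.15 to 2.57), and turned to -1.10 with doubled thresholds and -0.91 with cells past more than 1 gate kept. Krt8 was -1.14 (-1.80 to -0.51) and Krt19 -1.05 (-1.92 to -0.24). Of the Krt8 UMIs, 39 and 0 lay in the 23 and 8 cells with at least 10 Acta2 and Tagln UMIs per 10000. In the other 137 and 190 cells Krt8 was 18.75 and 14.1 CPM (32 and 31 UMIs) and Krt19 16.4 and 7.29 CPM. Krt8 turned to 0.70 with each cell thinned to 2000 UMIs. Thinning left a Krt8 UMI in 1 and 2 cells, too few to give a direction. Krt19 was -0.42 without the cell with most of its UMIs in each library. Wt1, with 270 and 190 UMIs, was -0.45 (-0.73 to -0.18) and stayed below 0 under all 10 alternatives tried. None of these was a split by Acta2 and Tagln. In the 23 and 8 cells with at least 10 such UMIs per 10000, Wt1 was 189.5 and 208 CPM. In the other 137 and 190 cells it was 68.6 and 65.6 CPM. The part of this split in the Wt1 ratio was not tested.

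**Figure D5:**
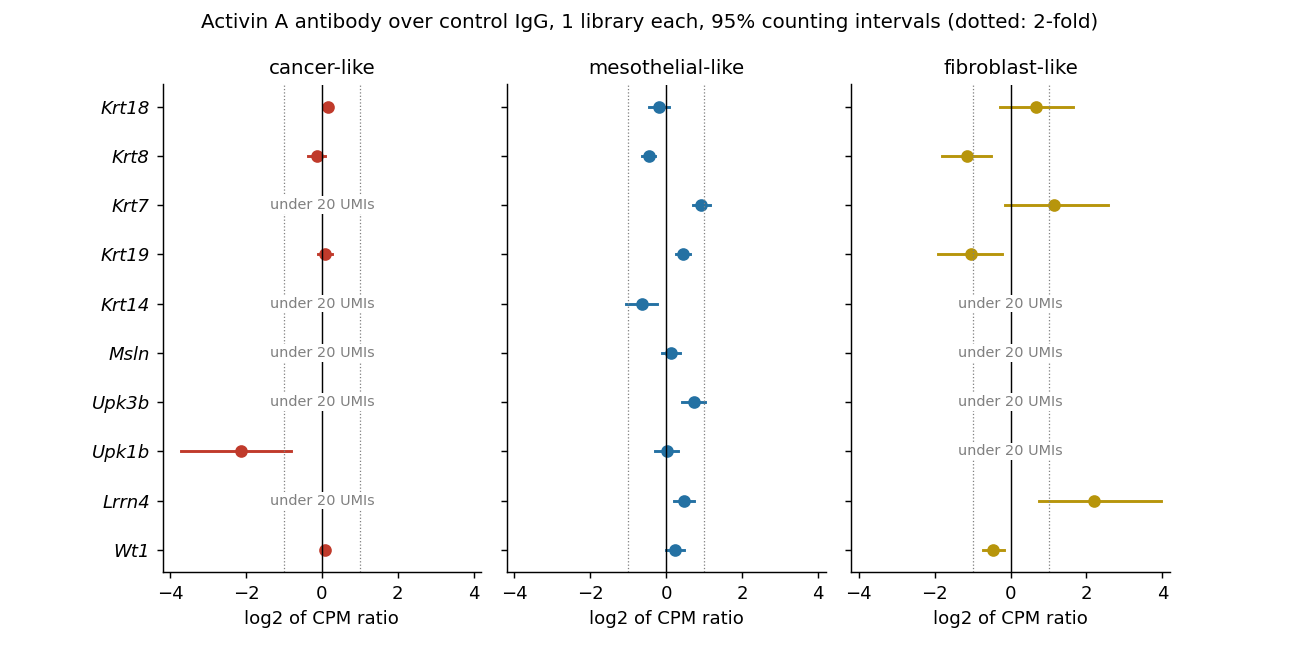
Log2 ratio of CPM, antibody over control IgG, for each gene in cancer-like, mesothelial-like and fibroblast-like cells, with 95% counting intervals. Dotted lines mark 2-fold, and genes under 20 UMIs in a class are marked so in grey in place of a point. All 10 points of mesothelial-like cells lie within 2-fold, and the intervals in fibroblast-like cells are wide.

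Other genes of the same families and of the epithelial, mesenchymal and ovarian programs were read from lists chosen with earlier results known. Of the 48 other keratins, 5 had at least 20 UMIs in cancer-like cells and 1 in mesothelial-like cells. T and NK cells also had 5. These counts are not alike in CPM, since the classes differ in size. Cancer-like cells held 18870141 and 19757590 UMIs in all, and mesothelial-like cells 1576182 and 1047815. In cancer-like cells Krt15, a type I keratin of basal cells, was 21.8 CPM (412 UMIs in 70 cells) and 62.3 CPM (1230 UMIs in 116 cells). Its log2 ratio was 1.51 (1.35 to 1.68), and it was the 1 keratin of the 5 in cancer-like cells past 2-fold. Over all genes, 2.07% were at least 2-fold higher with the antibody, 2.95% lower and 5.02% either way. A single cell held 22.3% and 13.7% of the Krt15 UMIs. Krt10 was 22.4 and 18.8 CPM, Krt76, a type II keratin, 16.8 and 17.3 CPM and Krt13 2.60 and 2.18 CPM. Krt15 had 0 UMIs and 1 UMI in mesothelial-like cells, and Krt10 was 22.8 and 17.2 CPM there.

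Of the 12 epithelial junction and program genes, Epcam, an adhesion molecule of epithelial cells, was the 1 gene with at least 50 UMIs in cancer-like cells, at 25.6 and 24.9 CPM (153 and 143 cells), and had 1 UMI in each library in mesothelial-like cells. Mesothelial-like cells instead had Cldn3, a tight junction claudin, at 74.9 and 136 CPM, and Cdh3, P-cadherin, at 155 and 97.4 CPM. Of the 10 basal and squamous genes, 2 were at least 2-fold higher in cancer-like than in mesothelial-like cells and 3 lower with control IgG (of 6 with at least 20 UMIs), and 2 higher and 2 lower with the antibody (of 5). Over all genes 20.3% and 18.3% were higher and 17.5% and 19.3% lower, and so few list genes, split both ways, give no direction for the list. Itga6, a laminin receptor subunit, was 114 and 163 CPM in cancer-like cells and 24.7 and 34.4 CPM in mesothelial-like cells, while Itgb4, its partner subunit, was 0.954 and 0.607 CPM against 19.03 and 36.3 CPM, and Sfn, an adaptor protein of epithelia, was 1.75 CPM against 26.65 CPM in the control IgG library. Of the mesothelial genes that were kept out of the gate, 5 of the 5 with at least 20 UMIs were at least 2-fold lower in cancer-like than in mesothelial-like cells in both libraries, beside 17.5% and 19.3% of all genes. Among these, Slpi, a secreted protease inhibitor, was 3384 and 4657 CPM in mesothelial-like cells and 26.4 and 45.8 CPM in cancer-like cells, and Wnt4 was 343 and 324 CPM against 65.9 and 50.1 CPM. In fibroblast-like cells Slpi was 377.5 and 372 CPM and Wnt4 279 and 144 CPM, both lower than in mesothelial-like cells. Pdpn was similar in these 2 classes (211 and 200 CPM, against 202 and 195 CPM in fibroblast-like cells). Efemp1 was higher in fibroblast-like cells (289 and 278.5 CPM, against 49.5 and 100 CPM). Calb2, also of this list, had 0 UMIs in mesothelial-like cells.

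Mesenchymal genes were present in all 3 classes beside the keratins. Vim, the intermediate filament of mesenchymal cells, reached 1932 and 1647 CPM among cancer-like cells, 3008 and 2651 CPM in mesothelial-like cells and 2787 and 2326 CPM in fibroblast-like cells, and Fn1 (fibronectin) was 1365 and 1430 CPM in cancer-like cells against 4654 and 4323 CPM in mesothelial-like cells. The transcription factors Zeb2 (170 and 140 CPM) and Zeb1 (121 and 114 CPM) were also found in cancer-like cells. Of 11 such genes with at least 20 UMIs in cancer-like cells and 9 in mesothelial-like cells, 0 were at least 2-fold higher or lower with the antibody, beside 5.02% and 8.17% of all genes. In fibroblast-like cells 1 of 11, Des, the intermediate filament of muscle, was at least 2-fold lower (68.8 and 24.0 CPM, log2 ratio -1.52), beside 3.1% of all genes. Of the 10 ovarian and coelomic genes, Bnc2 was 195 and 193 CPM in cancer-like cells, Gata6 41.5 and 37.3 CPM, Gata4 31.2 and 27.3 CPM and Emx2 14.2 and 10.53 CPM. Of the 8 of them with at least 20 UMIs, 4 were at least 2-fold higher and 1 was lower in cancer-like than in mesothelial-like cells in both libraries, beside 20.3% and 18.3% of all genes higher and 17.5% and 19.3% lower. In mesothelial-like cells Gata6 was 184 and 167 CPM and Bnc2 142 and 144 CPM.

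Over the 12 sums of class and library, the genes whose log2(CPM + 10) was most like that of Krt18 were Lgals7, which is also a cancer-like marker used in the gate, then Nme1, Baiap2l1, Lama5 and Tcim (Pearson r 0.97 to 0.98). Among cancer-like cells Nme1 was 682 and 718 CPM, against 428 and 457 CPM in mesothelial-like cells, and Tcim 139 and 146 CPM against 47.0 and 77.3 CPM. Baiap2l1 was 71.1 and 94.55 CPM against 52.0 and 47.7 CPM. Lama5 was 14.6 and 21.5 CPM against 18.4 and 9.54 CPM. With control IgG Lama5 was thus lower in cancer-like cells, unlike Krt18. Those most like Msln were Bnc1, a gate gene, then Upk1b, Il17re, Esyt3 and Upk3b (r 0.9953 to 0.9995). The sums share libraries and their depth, and the values describe likeness over these 12 points.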

How the data were processed

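Droplet-based 3′ single-cell RNA sequencing was done on 2 libraries, 1 for control IgG and 1 for the Activin A antibody, grouped by their titles. The authors deposited raw UMI counts per gene and barcode without a filter on cells. Per the file headers they were made with Cell Ranger 4, while the submitters' processing notes name Cell Ranger 7.0.1 and mm10. The labels and the study's methods also name different 10x chemistries. The tables hold 0 columns of other samples.

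The study's limits were used: 1000 to 8500 genes per cell, a total of 1000 to 100000 UMIs, and a mitochondrial share of 10% or less. Classes were set by the UMIs of each marker list per 10000 in a cell (cancer-like at least 10, fibroblast-like 32, immune 10, mesothelial-like 3 and at least 3 UMIs; T and NK 10, B 20, myeloid 20), with thresholds set after the scores were seen. A cell past the mesothelial and fibroblast gates was mesothelial-like. No doublet caller was run, and cells past more than 1 gate were left out. Members and lists were chosen with earlier results of these data known. All 10 members are named; of the lists, genes with at least 50 UMIs in a class, at most 4 by highest CPM.

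CPM and log2 ratios were computed from summed counts, with no test and no p-value, since cells are not replicates. Genes with at least 20 UMIs were counted for the background. Thinning used seed 1 and 2000 UMIs. Kept cells held a median of 5719 and 4660 UMIs. A count of 0 allows up to 3 UMIs. The log2 ratios, but not their intervals, were checked on simulated counts with a known change. Positions are from GENCODE M21 and promoters from RefSeq. Alternatives were other cell limits, gates, clusters, free RNA subtraction, thinning, weighting of cells and leaving out the richest cell. Python 3.11.15, scipy 1.17.1, pandas 2.3.3, scanpy 1.11.5 and leidenalg 0.10.2 were used.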

Additional observations from a re-analysis of the deposited data

Results flagged for a closer look

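Barcodes under 100 UMIs hold free RNA and entered comparisons of classes only through the free RNA subtraction. Among these barcodes, 4 members were at least 2-fold higher in the antibody library than in the control IgG library. The share of all genes past 2-fold was not computed for these barcodes, so this count cannot be weighed. Haemoglobin RNA, which is of no member, also differed there, at 61.1 CPM with the antibody against 23.6 CPM. Krt18 was 90.01 CPM (565 UMIs) with control IgG and 213 CPM (982 UMIs) with the antibody, a log2 ratio of 1.24 (1.09 to 1.39). Krt19 was 12.1 and 26.01 CPM, Wt1 12.3 and 26.2 CPM, and Upk1b 2.55 CPM (16 UMIs) and 5.20 CPM (24 UMIs). Cancer-like cells, the class highest in Krt18, made up 5.67% of kept cells in the antibody library and 3.81% in the control IgG library; their part in these values was not tested.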

How the results depend on the processing

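No paired analysis was possible because mice were pooled into 1 library for each treatment, so no library could be left out either. Values are log2 ratios. Over 9 alternatives, the 2 comparisons of cancer-like with mesothelial-like cells and the keratins of cancer-like cells (antibody over control IgG, 0.16) kept their sign. Between classes only the 2 sums were varied, and no single gene. In cancer-like cells Wt1 held 1304 of the 1340 and 1437 of the 1447 UMIs of the mesothelial sum. Krt18 held 93.6% and 94.3% of the keratin sum there, and its difference between the classes was opposite to that of the other keratins. For the keratins (cancer-like over mesothelial-like, both libraries together, -1.01) the value was -0.89 without upper limits on genes and UMIs, -1.90 in clusters made without the members, -1.73 with doubled thresholds, -0.025 with halved thresholds, -1.20 with cells past more than 1 gate kept, -1.06 after thinning and -1.08 as a mean over cells. For the mesothelial genes (-3.67) it was -4.49 in clusters, -4.51 doubled, -3.04 halved, -3.86 with cells past more than 1 gate, -3.98 thinned and -3.86 as a mean over cells. For antibody over control IgG, the keratins of cancer-like cells were 0.28 without upper limits, 0.096 in clusters, 0.085 doubled, 0.12 halved, 0.095 with cells past more than 1 gate, 0.0085 thinned and 0.029 as a mean over cells. In mesothelial-like cells the keratins (0.11) were -0.52 in clusters, -0.35 doubled, 0.21 halved, -0.061 with cells past more than 1 gate and -0.035 thinned, and the mesothelial genes (0.29) were -0.23, -0.16, 0.44, 0.17 and 0.0081 in the same order. In fibroblast-like cells the keratins (-0.62) were -1.54 doubled, -1.63 with cells past more than 1 gate and 0.81 thinned. Of 21 single genes and classes with at least 20 UMIs, 8 kept their sign under every alternative that gave a value. Of those past 2-fold, 7 values changed sign, all in fibroblast-like cells: Krt8 0.70 thinned, Krt7 -1.10 doubled and -0.91 with cells past more than 1 gate, and Lrrn4 -0.091 in clusters, -0.91 doubled, -0.37 with cells past more than 1 gate and -0.30 thinned. The cause was not tested. The limit of 20 UMIs was applied to the main values and not to the alternatives. After thinning, a Krt8 UMI was left in 1 and 2 fibroblast-like cells and an Lrrn4 UMI in 1 and 1. Krt18 was left in 2 and 3 such cells. The thinned values of fibroblast-like cells, with the 0.81 of the keratins, thus give no direction. Clusters held 39 and 26 mesothelial-like cells. Free RNA was estimated from 0 to 3 haemoglobin UMIs per class, at 0.677% or less, which is a rough figure. Depth limited the 9 genes and classes under 20 UMIs, which were not compared.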

Other observations

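Cells above the limits of 8500 genes or 100000 UMIs numbered 48 and 69, of which 39 and 63 were cancer-like. Their Krt18 level was 733 and 973 CPM, Krt8 4.41 and 3.445 CPM, Krt19 7.57 and 46.5 CPM, and Wt1 80.9 and 64.5 CPM. The 9 and 5 cells past more than 1 gate among them had Krt8 at 137 and 110 CPM and Krt7 at 46.5 and 53.8 CPM.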
